A study of Mus musculus with 16 samples.

Results

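The comparison described here is the difference between Chrna7 knockout (KO) and wild-type (WT) mouse ventricles, averaged over sham surgery and myocardial infarction (MI). All 16 of the series' 16 samples entered it: 4 WT sham, 4 KO sham, 4 WT MI and 4 KO MI. The difference was the mean of KO sham minus WT sham and KO MI minus WT MI, so that each surgery weighed the same and the response to infarction dropped out. Particular attention was given to the genes whose genotype difference was alike after both operations.

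The animals were neonatal mice, and the knockouts were of Jackson Laboratory strain 003232. The tissue was the whole ventricle, taken above and below the ligature where there had been an infarction, and polyadenylated RNA was sequenced on a HiSeq 4000. The labels give the same tissue, the same 2 surgeries and no other allele or agent for both genotypes. They do not state the age in days, the time after surgery, sex, litter, genetic background of the WT mice, whether the WT mice were littermates, which part of Chrna7 is missing, or whether each sample was 1 animal. Every p-value here is thus relative to the variation among libraries of a group, part of which may be technical.

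Chrna7 encodes the alpha 7 nicotinic acetylcholine receptor, an ion channel built of identical subunits that is highly permeable to calcium. It is best known in neurons and in macrophages, where acetylcholine acting through it dampens the release of inflammatory cytokines. The neonatal mouse heart can still rebuild muscle after injury, and macrophages, nerves and cardiomyocytes all take part in that response.

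Chrna7 itself was almost unread in these ventricles. Its reads per library ranged from 0 to 4, with 7 reads in the 8 WT libraries together and 14 in the 8 KO libraries, 21 in all. The genotypes differed by 0.0463 CPM (gene counts scaled by library total) in an exact permutation test (two-sided, p = 0.312, smallest possible p 0.000408), so at this depth the targeted gene does not check the genotype labels. Of the defining ventricular markers, Myh6 (the main adult myosin heavy chain) ranged from 13345 to 38780.3 CPM, Tnnt2 (cardiac troponin T) from 8497 to 11009 CPM and Pecam1 (endothelium) from 278 to 327 CPM.

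Some libraries stood apart before any gene was compared. The 4 KO sham libraries lay together on the first principal component of log2 CPM, which held 25.5% of the variance, at scores of 27.9 to 31.6 against -28.9 to 0.973 for all 12 others. KO MI replicate 4 had 17.3% mitochondrially encoded counts, with 9.79 to 10.6% in the rest of its group. It also had 289 CPM of lung epithelial markers (Sftpc, Sftpb and Scgb1a1), with 37.7 to 51.5 CPM in the rest of its group. Summed Y-linked reads were near 0 in WT sham replicate 1, KO sham replicate 2 and KO MI replicate 1 (1.73, 2.13 and 2.74 CPM) and 152 to 231 CPM in the other 13 libraries, so the groups were not balanced for this measure. Total gene counts ranged from 10711442 to 17223580 per library.

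Of 13412 genes tested, 735 (5.48%) differed between the genotypes on average, 345 higher in KO (2.57%) and 390 lower (2.91%), in edgeR's quasi-likelihood test at a Benjamini-Hochberg adjusted p under 0.05. An unadjusted p under 0.05 was reached by 3085 genes (23.0%). The same fit called 2057 genes (15.3%) after sham surgery and 2 (0.0149%), mt-Nd3 and Mylk3, after infarction. Most of the average therefore came from the sham samples: 684 of the 735 genes were also called after sham alone, 702 of them (95.5%) differed by more after sham, and the median size of their log2 difference was 0.65 after sham and 0.17 after infarction. Over all tested genes, 71.1% differed by more after sham, with medians of 0.20 and 0.09. The interaction, which asks whether the genotype difference changed with surgery, was called for 368 genes (2.74%), 170 of them among the 735.

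The 735 genes fell into 5 classes by how their 2 differences compared. In 491 the difference after sham was over 2 times that after infarction, and in 93 the signs were opposite. In 120 both differences had the same sign and lay within a factor of 2, but single KO and WT samples overlapped. In 5 the difference was over 2 times larger after infarction: Mmp12 (macrophage metalloelastase), Slc7a2 (a cationic amino acid transporter) and Ccsap higher in KO, Rab3a (a small GTPase of secretory vesicles) and Slc3a1 (an amino acid transporter subunit) lower. The remaining 26 were alike, by a definition that carries no test: called on average, same sign, no overlap of the 4 KO and 4 WT samples within either surgery, and the smaller log2 difference at least 0.5 of the larger. The 5 and the 26 were singled out after their values were seen. Over all tested genes, 55% had the same sign after both surgeries, 18.7% had it within a factor of 2, 37 (0.276%) had no overlap within either surgery in the same direction, and 26 (0.194%) met every criterion.

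**Figure D1:**
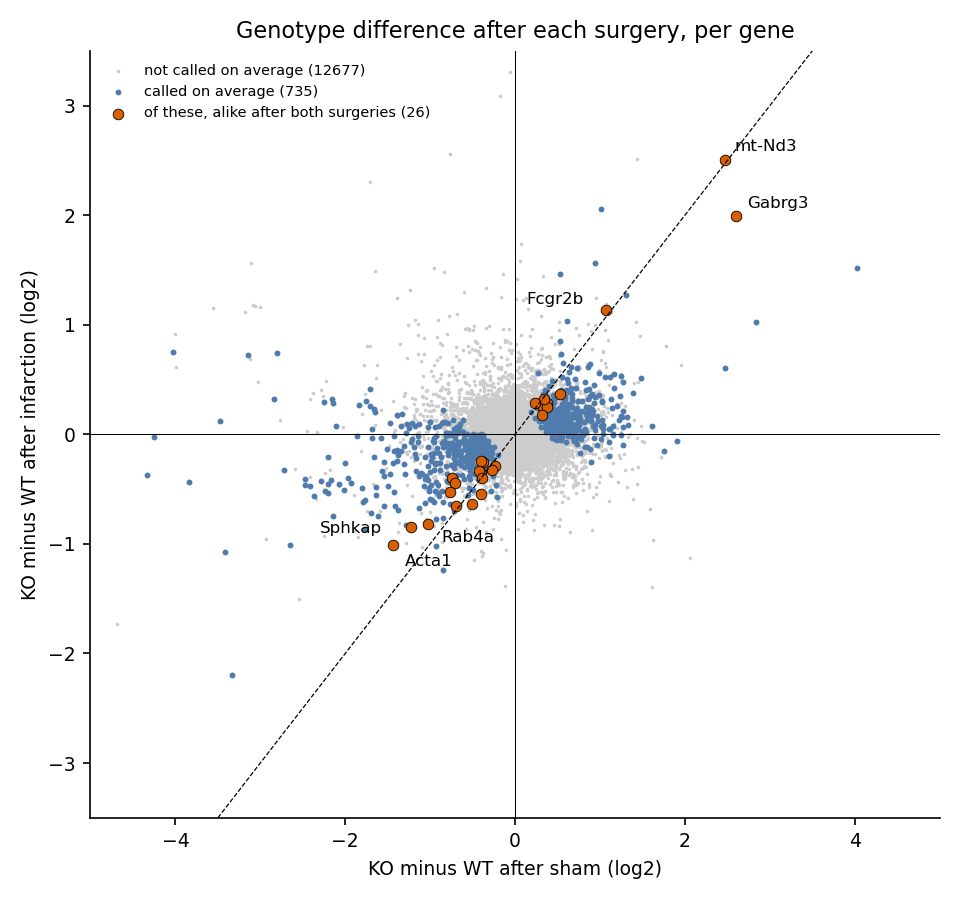
Each point is 1 of 13412 tested genes, with the log2 difference KO minus WT after sham on the x axis and after infarction on the y axis; 5 genes lie outside the axes, and the dashed line marks equal differences. The 735 called genes spread mainly along the x axis, and the 26 alike genes (orange) lie near the dashed line, with mt-Nd3 at 2.47 and 2.51.

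Among the 26 alike genes, 10 were higher and 16 lower in KO. Of these, 21 were called after sham alone and 2 after infarction alone. Their mean levels ran from 0.882 to 566 CPM, with a median of 33.5 CPM, and they lay on 14 chromosomes. The differences were mostly small: 18 of the 26 were under 1.5-fold and 5 were 2-fold or more. Their interactions are small by the definition itself, which limits how far the 2 differences may lie apart, so these are given below as a description only. The lack of overlap within each surgery, repeated below for single genes, is likewise part of the definition and no support for it. In 14 of the 26, all 8 KO samples lay on 1 side of all 8 WT samples. The definition favours this too, so it is a description only. Over all tested genes 16 (0.119%) had this pattern. Those of the 16 outside the 26 were Gpr37 (lower) and Tspan15 (higher), whose ratios of smaller to larger difference, 0.382 and 0.454, were under the limit. At the edge of the definition, Tnnt1 (ratio 0.54) and Nub1 (0.571) were just inside, and Tspan15 and Zkscan5 (0.428) just outside.

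A stricter question is whether a gene differed in the same direction after each surgery taken alone. This was tested with the larger of its 2 p-values, adjusted over all genes. mt-Nd3 was the 1 gene (0.00746%) to pass, with an adjusted p of 5.49e-08. The next smallest were Rab4a and Gabrg3 at 0.208, Acta1 at 0.291, Mylk3 at 0.361 and Depp1 at 0.529. With DESeq2 in place of edgeR the same test passed 4 genes, mt-Nd3, Mylk3, Acta1 and Rab4a, and with limma voom 2, mt-Nd3 and Mylk3.

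The mitochondrial genome encodes 13 proteins of the respiratory chain, and mt-Nd3 is a small membrane subunit of complex I, the entry point for electrons from NADH. mt-Nd3 stood at 4.5, 8.18, 6.39 and 7.15 CPM in the WT sham samples and at 34.5, 37.9, 29.4 and 43.6 CPM in KO sham. After infarction mt-Nd3 was at 8.31, 5.61, 5.95 and 7.12 CPM in WT and at 43, 39.8, 30.4 and 39.6 CPM in KO. The lowest of the 8 KO values was more than 3 times the highest of the 8 WT values, with no visible shift between the surgeries. The average log2 difference was 2.49 ± 0.12 (SE), a 5.6-fold higher level (edgeR adjusted p = 6.07e-11), and the interaction was 0.04 (95% interval -0.46 to 0.54). The library counts behind it were 52 to 105 reads in WT and 394 to 628 in KO. These are low for a mitochondrial gene in both genotypes. All mitochondrially encoded genes together held 9.51 to 17.3% of a library's counts, and mt-Nd6 alone stood at 2648 to 3910 CPM in WT MI. Why mt-Nd3 was read so little was not tested.

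No other mitochondrially encoded gene was called in the edgeR fit of all samples. mt-Nd4l, the neighbouring small complex I subunit, had a log2 difference of 0.90 ± 0.29 (edgeR adjusted p = 0.0791), with 3.76 to 6.66 CPM over the 8 WT samples, 8.66 to 19 CPM in KO sham and 5.05 to 19 CPM in KO MI. The 4 KO sham samples lay above all WT samples, and of the KO MI samples only replicate 4 did. Without that replicate the mt-Nd4l difference was 0.53 (adjusted p = 0.0772), and it was called in the sham samples alone (1.03, adjusted p = 0.0126), by DESeq2 (adjusted p = 0.0443) and with the length and GC correction (adjusted p = 0.0368). mt-Nd6, the complex I subunit read from the opposite strand, differed by -0.32 ± 0.12 (adjusted p = 0.114). The subunits mt-Nd1, mt-Nd2, mt-Nd4 and mt-Nd5 differed by 0.15, 0.13, -0.04 and 0.18, and the complex IV subunits mt-Co1, mt-Co2 and mt-Co3 by 0.17, -0.28 and 0.00. The share of all counts that was mitochondrially encoded was 1.25 percentage points higher in KO (exact permutation, two-sided, p = 0.257). Among 37 tested nuclear-encoded complex I genes none was called in either direction, with a median log2 difference of -0.03, where the median over all tested genes was 0.00, and this median turned to 0.04 under the length and GC correction.

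Gabrg3 encodes the gamma 3 subunit of the GABA-A receptor, a chloride channel of neurons. In WT sham it was at 0.259, 0.39, 0.0914 and 0.193 CPM, which is 1 to 5 reads per library, and in KO sham at 1.11, 1.84, 1.27 and 1.84 CPM, or 17 to 25 reads. After infarction Gabrg3 was at 0.658, 0.239, 0.183 and 0.343 CPM in WT (2 to 8 reads) and at 1.16, 1.4, 1.18 and 1.95 CPM in KO (17 to 28 reads). Every KO sample lay above every WT sample. With so few WT reads, Gabrg3 passed the expression filter only through the KO libraries, so this separation is no independent support. The average log2 difference was 2.30 ± 0.29, or 4.91-fold (edgeR adjusted p = 0.000145). Its level is too low for the naming rule (a mean of 2 CPM in 1 genotype), and several WT libraries were at or below the 3 reads, 0.179 to 0.29 CPM, taken here as the limit of a count.

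Fcgr2b, the inhibitory receptor for immunoglobulin G on macrophages and B cells, was the other alike gene at least 2-fold higher in KO. It stood at 1.38, 1.09, 1.37 and 2.13 CPM in WT sham, at 3.45, 3.38, 2.84 and 2.73 CPM in KO sham, at 4.69, 4.78, 2.2 and 2.92 CPM in WT MI and at 5.48, 7.86, 9.05 and 10 CPM in KO MI. Both genotypes were higher after infarction, and within each surgery all KO samples lay above all WT samples. The log2 difference was 1.07 after sham and 1.13 after infarction, 1.10 ± 0.18 on average (2.14-fold, edgeR adjusted p = 0.00145). The other 7 genes that were higher differed by 1.19-fold to 1.36-fold. They include Nampt, the rate-limiting enzyme of NAD salvage, at 30.1 to 36.7 CPM in the 8 WT samples and 31.8 to 47.3 CPM in the 8 KO samples (log2 0.32 ± 0.07, edgeR adjusted p = 0.00836). Pde1c, a calcium- and calmodulin-dependent phosphodiesterase of cyclic nucleotides, differed by 0.33 ± 0.07 (0.20 and no longer called with the length and GC correction). H1f0, a linker histone of differentiated cells, differed by 0.29 ± 0.06, Ivns1abp by 0.26 ± 0.06, Nub1, which lowers the ubiquitin-like protein NEDD8, by 0.25 ± 0.06 and Fam241a by 0.45 ± 0.10.

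Of the 16 lower alike genes, 1 (Acta1) was in the cardiomyocyte contractile list and none in the skeletal muscle list. Acta1 is skeletal alpha-actin, the sarcomeric actin that the heart also makes in early life, and Tnnt1 is the slow skeletal form of troponin T. Their promoters are shown because they were the 2 of the 21 alike genes searched that held a TATAAA box, and Acta1's the 1 that held a CArG box, the binding motif of serum response factor. Each is the 250 bases before the transcription start in RefSeq (GRCm38.p6, minus strand), Acta1 at chr8:123894776-123895025 and Tnnt1 at chr7:4515976-4516225, with the CArG box and the TATAAA box in capitals.
Acta1: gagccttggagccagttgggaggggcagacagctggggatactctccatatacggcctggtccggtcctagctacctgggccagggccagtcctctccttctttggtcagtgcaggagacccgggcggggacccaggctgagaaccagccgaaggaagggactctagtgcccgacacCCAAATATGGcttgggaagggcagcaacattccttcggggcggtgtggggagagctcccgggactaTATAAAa
Tnnt1: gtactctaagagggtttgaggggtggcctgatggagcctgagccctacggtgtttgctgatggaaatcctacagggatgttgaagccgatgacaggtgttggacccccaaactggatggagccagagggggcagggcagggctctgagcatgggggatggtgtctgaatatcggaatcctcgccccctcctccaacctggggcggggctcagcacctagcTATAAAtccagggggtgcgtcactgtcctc

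RefSeq promoters were matched for 21 of the 26 alike genes. Searched on both strands, the CArG box was in 1 of the 21 and in 1.62% of 27025 genes with a promoter, TATAAA in 2 of the 21 and in 14.3%, the E-box letters CANNTG in 14 of the 21 and in 69.3%, and the MEF2 box in none of the 21 and in 3.42%. The CArG box of Acta1 begins 73 bases before the start and its TATAAA box 7 bases before it. These are matches of letters in a window, not measured binding.

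Acta1 stood at 121, 211, 173 and 142 CPM in WT sham and at 46.2, 58.5, 76.3 and 57.7 CPM in KO sham. After infarction Acta1 was at 365, 335, 183 and 331 CPM in WT and at 131, 158, 156 and 156 CPM in KO. Acta1 was higher after infarction than after sham in both genotypes, and lower in KO within each surgery without overlap. The average log2 difference was -1.23 ± 0.14, a 2.34-fold lower level (edgeR adjusted p = 0.000161). Leaving out WT MI replicate 3, its lowest infarcted WT sample, brought Acta1 past the test that requires both surgeries.

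Tnnt1 was at 72, 65.9, 74.1 and 56.9 CPM in WT sham, at 39.3, 41.1, 43.9 and 37 CPM in KO sham, at 71.8, 57.9, 74.9 and 65.5 CPM in WT MI and at 56.7, 51.5, 54.3 and 42.1 CPM in KO MI. All 8 KO samples lay below all 8 WT samples, by a narrow margin of 56.7 to 56.9 CPM. The log2 difference was -0.57 ± 0.07 on average (edgeR adjusted p = 0.000215), -0.74 after sham and -0.40 after infarction. Its interaction of 0.34 had an unadjusted 95% interval of 0.03 to 0.65 and an adjusted p of 0.23.

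Mylk3, the cardiac myosin light chain kinase, phosphorylates the regulatory light chain and so tunes sarcomere assembly and contraction. Mylk3 was at 707, 733, 713 and 614 CPM in WT sham, at 542, 557, 499.5 and 492 CPM in KO sham, at 536, 567, 645 and 535 CPM in WT MI and at 427, 365, 384 and 392 CPM in KO MI. KO samples were below WT samples within each surgery, and infarcted samples of each genotype tended to be lower than sham samples. The log2 difference was -0.47 ± 0.06 (1.39-fold lower, edgeR adjusted p = 0.00019), and Mylk3 was called after sham (adjusted p = 0.00416) and after infarction (adjusted p = 0.0251). With the infarcted samples fitted alone the difference was -0.55 and the call was lost (edgeR adjusted p = 0.398). Of the 16 tested kinases, phosphatase subunits and partners that act on myosin light chains it was the 1 called, and the list's median was 0.08. The closest others were Dapk3 at -0.20 ± 0.06 (adjusted p = 0.056) and Mylk, the smooth muscle kinase, at 0.23 ± 0.08 (adjusted p = 0.104).

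Itgb1bp2, Cacna1h, Adcy5 and Sphkap were lower on average and were not called after infarction alone. Itgb1bp2 (melusin), a muscle chaperone that binds the tail of beta 1 integrin, stood at 154, 212, 184 and 195 CPM in WT sham, 141, 137, 147 and 140.4 CPM in KO sham, 160.5, 201, 165 and 148 CPM in WT MI and 141, 123, 138 and 126 CPM in KO MI. Its 8 KO values lay just below its 8 WT values (log2 -0.37 ± 0.07, edgeR adjusted p = 0.00447). Cacna1h, the T-type calcium channel Cav3.2 of the developing heart, was at 43 to 47.9 CPM in WT sham and 32.9 to 38.5 CPM in KO sham. After infarction Cacna1h was at 52 to 59.9 CPM in WT and at 48.7, 51.6, 43.6 and 24.6 CPM in KO, with KO MI replicate 4 the lowest (average -0.39 ± 0.10, adjusted p = 0.0339). Adcy5, a main adenylyl cyclase of the heart that makes cyclic AMP, was at 148 to 189 CPM over the 8 WT samples and 105 to 172 CPM over the 8 KO samples (log2 -0.26 ± 0.06, adjusted p = 0.0242). Sphkap, an anchoring protein for cyclic AMP-dependent kinase, was at 8.3, 6.47, 3.47 and 2.9 CPM in WT sham and 1.56, 2.43, 2.39 and 2.81 CPM in KO sham. Sphkap was at 4.61, 3.52, 8.51 and 3.78 CPM in WT MI and 2.47, 3.09, 3.48 and 2.16 CPM in KO MI, so the groups of each surgery nearly touched (log2 -1.03 ± 0.23, adjusted p = 0.0133).

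Of the remaining lower genes, Depp1, a regulator of autophagy, was at 25.1, 28.9, 20.6 and 27 CPM in WT sham, 16.9, 16, 13.5 and 16.4 CPM in KO sham, 58.9, 62.7, 46.3 and 46.7 CPM in WT MI and 38.9, 31.9, 41.5 and 24.3 CPM in KO MI. Depp1 was higher after infarction in both genotypes and lower in KO within each surgery (log2 -0.68 ± 0.11, edgeR adjusted p = 0.00101). Atp6v0e2, a subunit of the proton pump of acidic organelles, differed by -0.65 ± 0.13 and Morn4 by -0.58 ± 0.11. Aldh4a1, an enzyme of proline breakdown, differed by -0.32 ± 0.06, Ipo13, a nuclear transport receptor, by -0.30 ± 0.08 and Tmem150a by -0.32 ± 0.09.

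**Figure D2:**
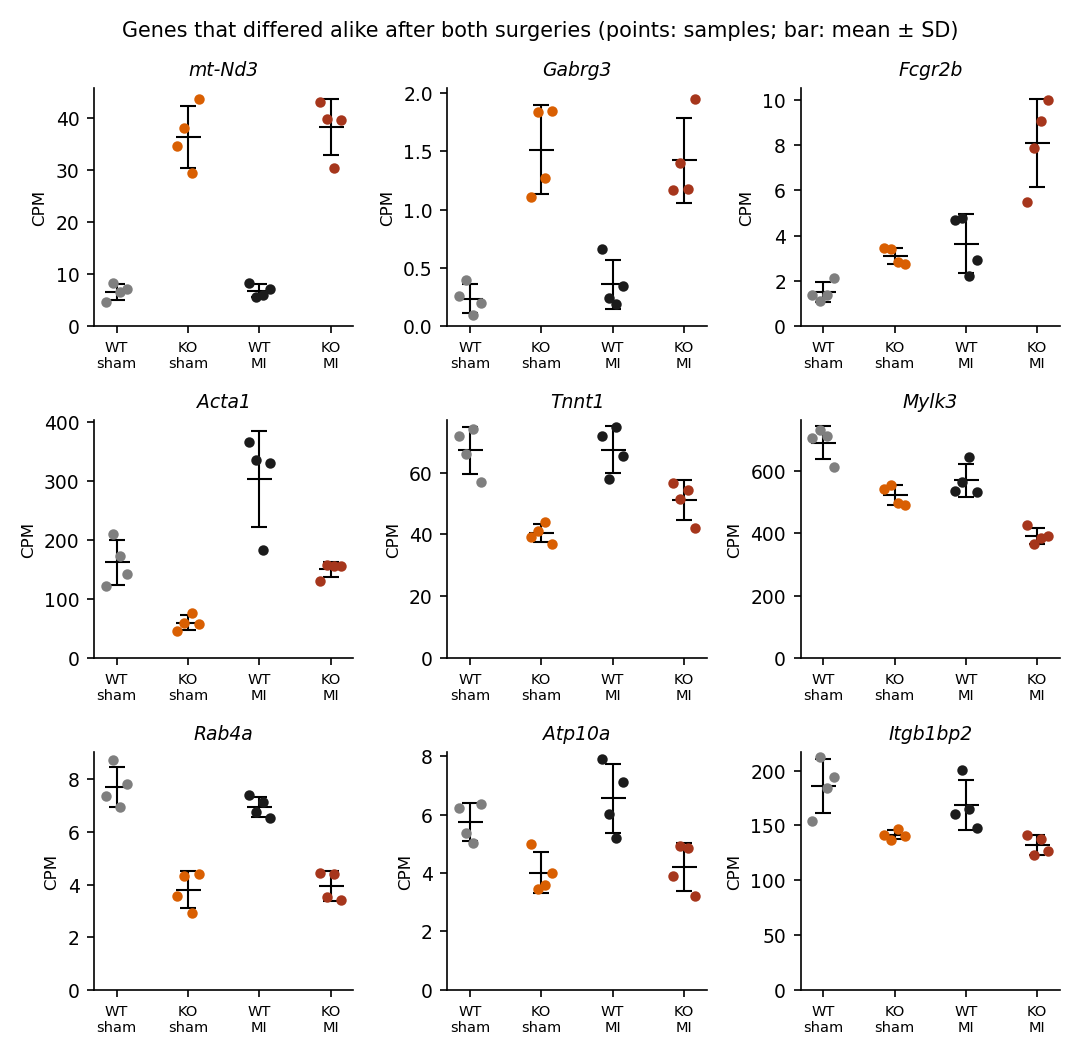
CPM of 9 alike genes in the 16 samples, by group (points are samples, bars the mean ± SD, n = 4, y axes from 0). By the definition of these genes, KO and WT samples do not overlap within either surgery. For mt-Nd3 the KO samples lie at 29.4 to 43.6 CPM and the WT samples at 4.5 to 8.31 CPM.

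Dropping single libraries left most of these calls in place. The call was lost for Adcy5 without KO sham replicate 1 or 4 (edgeR adjusted p up to 0.0591), for Ipo13 without WT sham 2, KO sham 1, KO sham 4 or WT MI 2 (up to 0.0651), for Tmem150a without any of 6 libraries, all of them sham ones but WT MI 2 (up to 0.0688), and for Cacna1h without any of 8 libraries (WT sham 1, 2 or 3, KO sham 1, 2 or 4, WT MI 2 or 4; up to 0.0719). Leaving out the 3 libraries low in Y-linked reads lowered the number of called genes from 735 to 214 and kept 17 of the 26 alike genes called. The 9 that lost their call were Nampt, Ivns1abp, Nub1, Sphkap (adjusted p = 0.0803), Atp10a (0.0831), Cacna1h, Vsig10l, Adcy5 and Tmem150a. All 26 kept their sign in every alternative in which they were tested. The definition largely fixes this, since KO and WT samples do not overlap within either surgery, so it is a description only.

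2 alike genes lay within 10 Mb of Chrna7 on chromosome 7, distances being from the GRCm38 annotation. Gabrg3 lay 5.71 Mb away and Atp10a, a phospholipid flippase of the plasma membrane, 4.27 Mb away, with 1.27 Mb between them. Atp10a was at 6.23, 5.38, 5.02 and 6.38 CPM in WT sham, 5.01, 3.46, 3.59 and 4.01 CPM in KO sham, 7.9, 6.03, 5.22 and 7.12 CPM in WT MI and 3.9, 4.91, 4.86 and 3.2 CPM in KO MI. Its 8 KO samples lay below its 8 WT samples, though KO sham replicate 1 (5.01 CPM) and WT sham replicate 3 (5.02 CPM) nearly touched (log2 -0.57 ± 0.13, edgeR adjusted p = 0.0115). Another alike gene on the chromosome, Vsig10l, lay 19.6 Mb away (log2 -0.38 ± 0.09, adjusted p = 0.0198). Within 10 Mb 38 genes were tested and 5 (13.2%) called, and within 20 Mb 209 were tested and 17 called (8.13%: 4 higher, 13 lower), where 5.48% of all tested genes were called. Plin1, the coat protein of fat-cell lipid droplets, had the largest difference of the 17, at -3.67 ± 0.98 (adjusted p = 0.0399), and was in the class over 2 times larger after sham. Without the 3 libraries low in Y-linked reads, 7 of the 209 were called (1 higher, 6 lower), where 214 of all 13466 tested genes were. Without KO sham replicate 2 alone 11 were called, where 409 of all 13534 tested genes were.

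**Figure D3:**
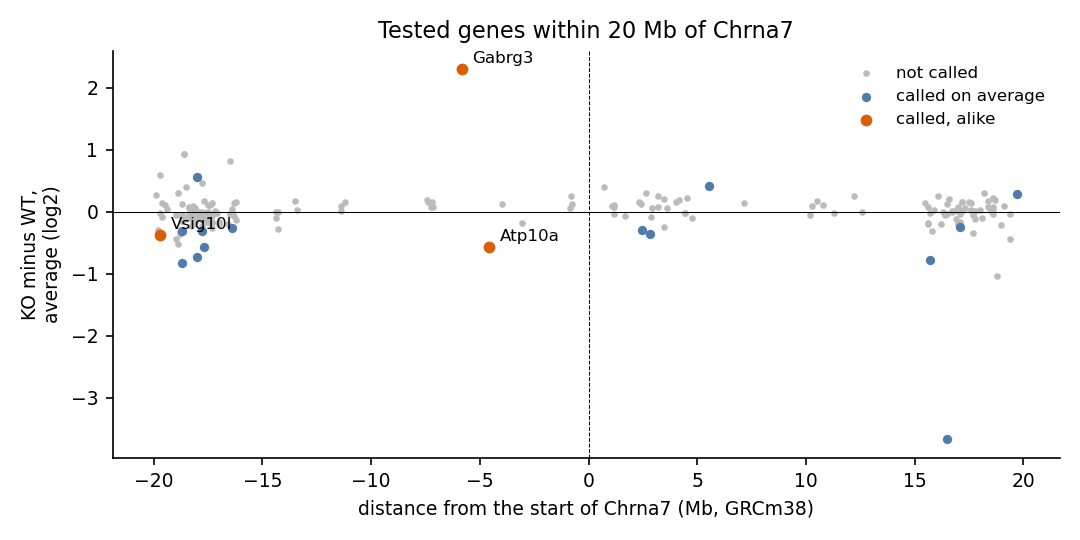
Average log2 difference KO minus WT (y axis) of 209 tested genes lying up to 20 Mb from Chrna7, by distance of their start from that of Chrna7 in Mb (x axis). Of these, 17 were called and 3 were alike (orange): Gabrg3 at 2.30, Atp10a at -0.57 and Vsig10l at -0.38.

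A second pair of alike genes were close neighbours. Rab4a, a small GTPase of endosomal recycling, and Acta1 lie 0.0565 Mb apart on chromosome 8. Rab4a was at 7.35, 8.73, 6.94 and 7.83 CPM in WT sham, 3.58, 4.34, 2.91 and 4.41 CPM in KO sham, 7.4, 6.75, 7.14 and 6.52 CPM in WT MI and 4.45, 3.51, 4.4 and 3.41 CPM in KO MI. All 8 KO samples lay below all 8 WT samples (log2 -0.92 ± 0.11, 1.89-fold, edgeR adjusted p = 8.87e-05). Ccsap, a centriole protein gene that lies between them and was named for its position after its value was seen, differed in the other direction (0.41 ± 0.12, adjusted p = 0.0482). The call for Ccsap was lost when any of 14 single libraries was left out, all but WT MI 4 and KO MI 4 (adjusted p up to 0.0981). The next gene, Nup133, differed by 0.02 ± 0.06 (adjusted p = 0.891). Within 0.5 Mb of Acta1 the only further called gene was Pgbd5, 0.477 Mb away (-0.79 ± 0.22, adjusted p = 0.0393).

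The other called genes with the smallest p were carried by the sham samples. Slc3a2, the heavy chain shared by several amino acid transporters, was at 106, 96.8, 90.4 and 96.3 CPM in WT sham, 45.9, 42.6, 44.2 and 44.3 CPM in KO sham, 54.5, 62, 63.8 and 60.2 CPM in WT MI and 53.8, 66, 66.1 and 70.8 CPM in KO MI. WT sham stood above the other 3 groups, and the infarcted groups overlapped (average log2 -0.52 ± 0.06, edgeR adjusted p = 8.44e-05, interaction adjusted p = 2.78e-05). Gpam, a mitochondrial enzyme of triglyceride synthesis, was at 66.6 to 77.3 CPM in WT sham, 118 to 124 CPM in KO sham, 58.6 to 76.5 CPM in WT MI and 70.1 to 79.8 CPM in KO MI, so that KO sham alone was raised (average 0.43 ± 0.06, adjusted p = 0.000325). Sema7a, a membrane-anchored semaphorin, averaged 0.49 ± 0.07 from 1.02 after sham and -0.04 after infarction. Tnfsf10, the death ligand TRAIL, averaged 0.92 ± 0.15 from 1.91 and -0.06, and Cnr2, the cannabinoid receptor of immune cells, 1.54 ± 0.24 from 2.47 and 0.60. Cnr2 had only 2 to 4 reads per library in WT sham, at the 3-read limit, and 15 to 23 in KO sham. It passed the expression filter through the KO sham libraries, where it is high. The size of its sham difference is thus uncertain, and that difference is no independent support. Ceacam1, a cell adhesion molecule, averaged 0.64 ± 0.10 from 0.87 and 0.41.

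Gene groups were taken from lists and are given as counts and medians only. Over all tested genes 2.57% were called higher, 2.91% lower, and the median log2 difference was 0.00. Runs with fewer libraries called fewer genes in all, so list counts from them are to be read beside these totals. The totals were 214 of 13466 without the 3 libraries low in Y-linked reads and 396 of 13530 without KO sham replicate 1. They were 409 of 13534 without KO sham 2, 472 of 13523 without WT sham 2 and 501 of 13528 without WT sham 3. In these bulk samples fewer cells of a type and less RNA per cell cannot be told apart. In the macrophage and monocyte list 6 of 28 tested genes were higher in KO and none lower, and none of the 6 was alike. The median was 0.34 (0.19 after sham, 0.38 after infarction). Of the 28 average differences 26 were positive, where 6708 of all 13412 were. The sign was the same after both surgeries in 18 of the 28, where it was in 55% of all tested genes. Adgre1 (F4/80), a defining macrophage surface marker, was at 7.09, 9.59, 7.95 and 6.57 CPM in WT sham, 11.8, 12.1, 10.8 and 10.8 CPM in KO sham, 13.4, 18.3, 11.3 and 9.27 CPM in WT MI and 17.2, 18.5, 25.5 and 26.7 CPM in KO MI. The sham groups did not overlap for Adgre1, and after infarction 1 WT sample lay above the lowest KO sample (log2 0.64 ± 0.13, edgeR adjusted p = 0.00799). F13a1 (coagulation factor XIII subunit of macrophages) averaged 0.52 ± 0.12, Mrc1 (mannose receptor) 0.32 ± 0.09, Csf1r (receptor for the macrophage growth factor) 0.36 ± 0.10 and Mmp12 1.53 ± 0.43. Cx3cr1, the fractalkine receptor, averaged 0.55 ± 0.14, from 0.97 after sham and 0.12 after infarction. The summed level of Adgre1, Cd68, Csf1r and C1qa was 61 to 71.1 CPM in WT sham, 80.2 to 85.1 in KO sham, 74.2 to 124 in WT MI and 107 to 162 in KO MI, a KO minus WT difference of 26.6 CPM (exact permutation, two-sided, p = 0.00531). Leaving out 1 library at a time, between 2 genes of the list (without WT sham replicate 3) and 8 were called, and without the 3 libraries low in Y-linked reads 3. The call for Cx3cr1 was lost without any of 6 libraries (WT sham 2, 3 or 4, KO sham 2 or 4, WT MI 1; adjusted p up to 0.0676).

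Red blood cell genes were the list with the lowest median. In it 7 of 9 tested genes were lower in KO and none higher, with a median of -1.18 (-1.77 after sham, -0.45 after infarction). Hbb-bt, an adult beta-globin, was at 240.1, 233, 337 and 333 CPM in WT sham, 72.6, 84, 70.5 and 64.5 CPM in KO sham, 149.6, 161, 115 and 148 CPM in WT MI and 89.5, 91.6, 138 and 118 CPM in KO MI. WT sham was the highest group and KO sham the lowest, and after infarction the genotypes overlapped (average log2 -1.18 ± 0.11, edgeR adjusted p = 7.12e-06). Hbb-bs differed by -1.06 ± 0.12, Hba-a1 by -1.19 ± 0.13 and Alas2, the first enzyme of haem synthesis in red cells, by -0.92 ± 0.10. The globin copies are near-identical, so reads may be split between them; the KO minus WT difference of their sum was -1595 CPM (exact permutation, two-sided, p = 0.00122), with 2841 to 4612 CPM in WT sham and 947 to 1353 CPM in KO sham. In each run that left out 1 library, 7 of the 9 genes were called.

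Immediate early genes, which are transcribed within minutes of a stimulus, had calls mainly in 1 direction. Of 22 tested, 11 were lower in KO and 1 (Fosl1, 0.46 ± 0.12) higher, with a median of -0.50 (-0.78 after sham, -0.21 after infarction). Nr4a1, an orphan nuclear receptor, was at 266, 187, 159 and 189.7 CPM in WT sham, 14.1, 15.1, 14.4 and 12.3 CPM in KO sham, 54.9, 34.1, 169 and 82.2 CPM in WT MI and 69.7, 47.6, 106 and 27.1 CPM in KO MI. The sham groups were far apart and the infarcted groups overlapped throughout (average log2 -2.14 ± 0.34, edgeR adjusted p = 0.00472). Fos, the AP-1 subunit, averaged -2.25 ± 0.34 (-3.42 after sham, -1.07 after infarction) and Atf3, a stress-induced repressor, -1.37 ± 0.18. Without the 3 libraries low in Y-linked reads, 6 were lower and none higher.

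In glycolysis and hypoxia 9 of 28 genes were lower and 2 higher (median -0.22), among them the glycolytic enzymes Pfkl (-0.34 ± 0.07) and Pgam1 (-0.42 ± 0.09) and the lactate exporter Slc16a3 (-0.65 ± 0.14). Pfkl was at 296 to 339.8 CPM in WT sham, 217 to 249.7 CPM in KO sham, 351 to 411 CPM in WT MI and 267 to 366 CPM in KO MI, separate after sham and overlapping after infarction. The 2 higher were Mxi1 (0.40 ± 0.10), a transcriptional repressor of the MYC network, and Ddit4 (0.25 ± 0.07), an inhibitor of mTOR signalling. With 1 library left out, 5 (without KO sham replicate 2) to 13 of the list were called, and without the 3 libraries low in Y-linked reads 1. Over all tested genes 409 of 13534 were called without KO sham replicate 2 and 214 of 13466 without those 3 libraries. In fatty acid oxidation 3 of 26 genes were higher and none lower (median 0.10). These were Pdk4 (0.59 ± 0.11), which shuts glucose carbon out of the mitochondrion, Ucp3 (0.47 ± 0.10), a mitochondrial carrier, and Cpt1a (0.24 ± 0.06), which admits fatty acids. Pdk4 was at 136, 166, 136 and 157 CPM in WT sham and 235, 249, 243 and 351 CPM in KO sham, and at 90 to 115 CPM in WT MI and 95.4 to 169.6 CPM in KO MI, where the groups overlapped. The call for Cpt1a was lost without any of 8 libraries (adjusted p up to 0.0729), among them KO sham 1, 2 and 4.

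In the contractile and atrial lists all calls were lower in KO. In the cardiomyocyte contractile list 4 of 25 were lower and none higher (median -0.13): Acta1, Tnni1 (slow skeletal troponin I, the fetal form; -0.61 ± 0.09), Myh7 (beta myosin heavy chain, also fetal in the mouse; -0.45 ± 0.12) and Tnnc1 (cardiac troponin C; -0.28 ± 0.08). Tnni1 was at 858, 1164, 1174 and 1129 CPM in WT sham and 383, 469.8, 396 and 398 CPM in KO sham, but at 559 to 755 CPM in WT MI and 596 to 847 CPM in KO MI, with the sign turned after infarction. The call for Myh7 was lost when any of 12 libraries was left out, all but WT sham 2 and 4, WT MI 2 and KO MI 2 (edgeR adjusted p up to 0.0802), and without WT sham replicate 3 the list kept 2 calls. In the atrial list Myl4 (-1.38 ± 0.32) and Myl7 (-1.36 ± 0.36), 2 atrial myosin light chains, were lower of 11 tested. Myl7 ran from 215 to 766 CPM within WT sham and from 68 to 125 CPM in KO sham, and the summed atrial markers were 709 to 3316 CPM and 272 to 607 CPM in the same groups. After infarction the atrial sums overlapped, at 1345 to 2180.1 CPM in WT and 648 to 2744 CPM in KO (both surgeries, exact permutation, two-sided, p = 0.0682). Their part in the contractile differences was not tested. Myl4 lost its call without WT sham 2, KO sham 1, 2 or 4 or KO MI 1, Myl7 without any of 12 libraries, and with WT sham replicate 2 left out no gene of the atrial list was called.

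Among 12 smooth muscle and pericyte genes 4 were higher and 2 lower. Rgs5 (0.56 ± 0.11), Kcnj8 (0.31 ± 0.08), Abcc9 (0.33 ± 0.09) and Pdgfrb (0.36 ± 0.10), which are typical of pericytes, were higher. Cnn1 (calponin, -0.97 ± 0.17) and Tagln (transgelin, -0.47 ± 0.09), which are actin-binding proteins of smooth muscle, were lower. Rgs5 was at 94.1 to 132 CPM in WT sham and 204 to 227 CPM in KO sham, and at 94.1 to 153 CPM in WT MI and 118 to 198 CPM in KO MI. The sham groups were separate and the infarcted groups overlapped. In runs that left out 1 library, 3 (without KO sham replicate 2) to 7 of the 12 were called, and without the 3 libraries low in Y-linked reads 2. In the circadian clock list 2 of 17 were higher, Tef (0.45 ± 0.08) and Nr1d2 (0.41 ± 0.09), and 2 lower, Per1 (-0.94 ± 0.16) and Bhlhe40 (-0.63 ± 0.09). Per1 was at 98 to 130.1 CPM in WT sham, 29.9 to 33.7 CPM in KO sham, 41.5 to 68.9 CPM in WT MI and 36.8 to 86.9 CPM in KO MI. The hour at which the hearts were taken is not in the labels.

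**Figure D4:**
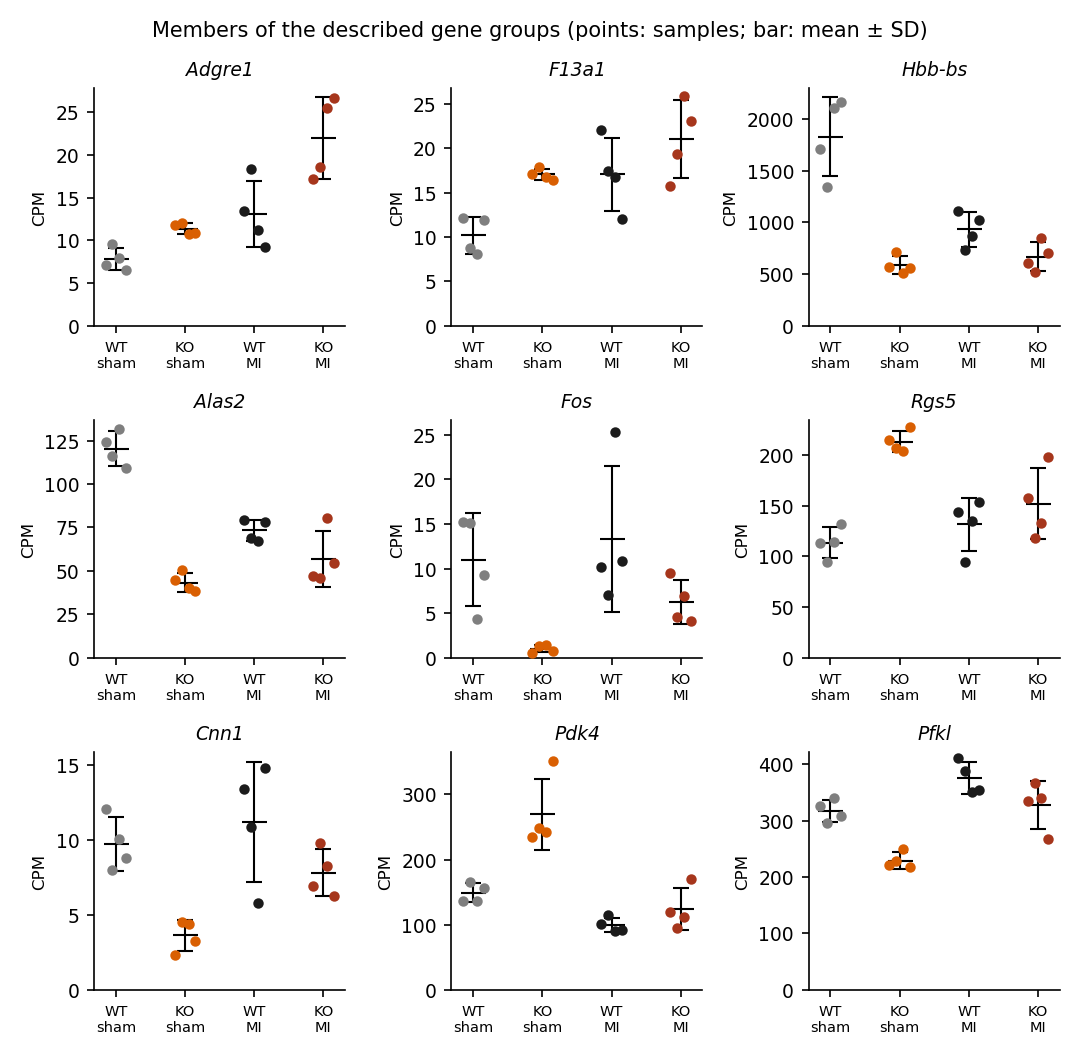
CPM of 9 genes from the described lists in the 16 samples, by group (points are samples, bars the mean ± SD, n = 4, y axes from 0). Adgre1 averages higher in KO after both surgeries, with 1 infarcted WT sample inside the KO range, while Fos, Alas2, Rgs5 and Pdk4 separate the genotypes after sham and overlap after infarction.

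Epicardium and mesothelium held 3 lower genes of 14 (Aldh1a2, Msln and Upk3b), with a median of -1.53 after sham and 0.29 after infarction. With 1 library left out, 1 (without KO sham replicate 1) to 6 were called, and 1 without the 3 libraries low in Y-linked reads. The summed mesothelial markers were 59.6 to 91.5 CPM in WT sham, 12.4 to 17.5 in KO sham, 19.1 to 41.4 in WT MI and 19.7 to 56.9 in KO MI (exact permutation, two-sided, p = 0.029), and their part in the other differences was not tested. No gene was called in either direction among 11 neutrophil, 19 interferon-stimulated, 21 calcium handling, 10 lung epithelial and 30 ribosomal protein genes. Over all tested genes 5.48% were called, so lists this short would hold few calls at that share. For the ribosomal protein genes the average hides opposite signs. The sign was the same after both surgeries in 0 of the 30, with medians of -0.33 after sham and 0.16 after infarction.

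Of 11 tested genes of cholinergic signalling none was called in either direction (median 0.13), and of 27 genes of NF-kB and JAK-STAT3 signalling 1 was lower, Cish, a suppressor of cytokine signalling. Tnf, Il6 and Il10 had too few reads to be tested, 105, 70 and 6 over all 16 libraries. Il1b, an inflammatory cytokine, was tested and not called (-0.81 ± 0.47, edgeR adjusted p = 0.315). Without WT MI replicate 1 the Il1b difference was -0.24. The natriuretic peptide Nppa averaged 1124 CPM in WT sham, 223 in KO sham, 1246 in WT MI and 1265 in KO MI. Its difference of -1.16 ± 0.41 was not called (edgeR adjusted p = 0.121), but it was by DESeq2 (adjusted p = 0.0327), by voom (0.0359) and in the sham samples alone (0.036). Nppb differed by -0.28 ± 0.19 (adjusted p = 0.399). Mki67, a marker of dividing cells, differed by -0.11 ± 0.09 (adjusted p = 0.461), and of 25 G2/M genes none was called in either direction, although all 25 differences were negative (median -0.21). With 1 library left out 0 to 4 of the G2/M genes were called lower, with the length and GC correction 2, by voom 2 and by DESeq2 1. The insulin-degrading enzyme Ide was not called on average (0.12 ± 0.14, adjusted p = 0.643), with group means of 147 CPM in WT sham, 223 in KO sham, 112 in WT MI and 87 in KO MI.

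**Figure D5:**
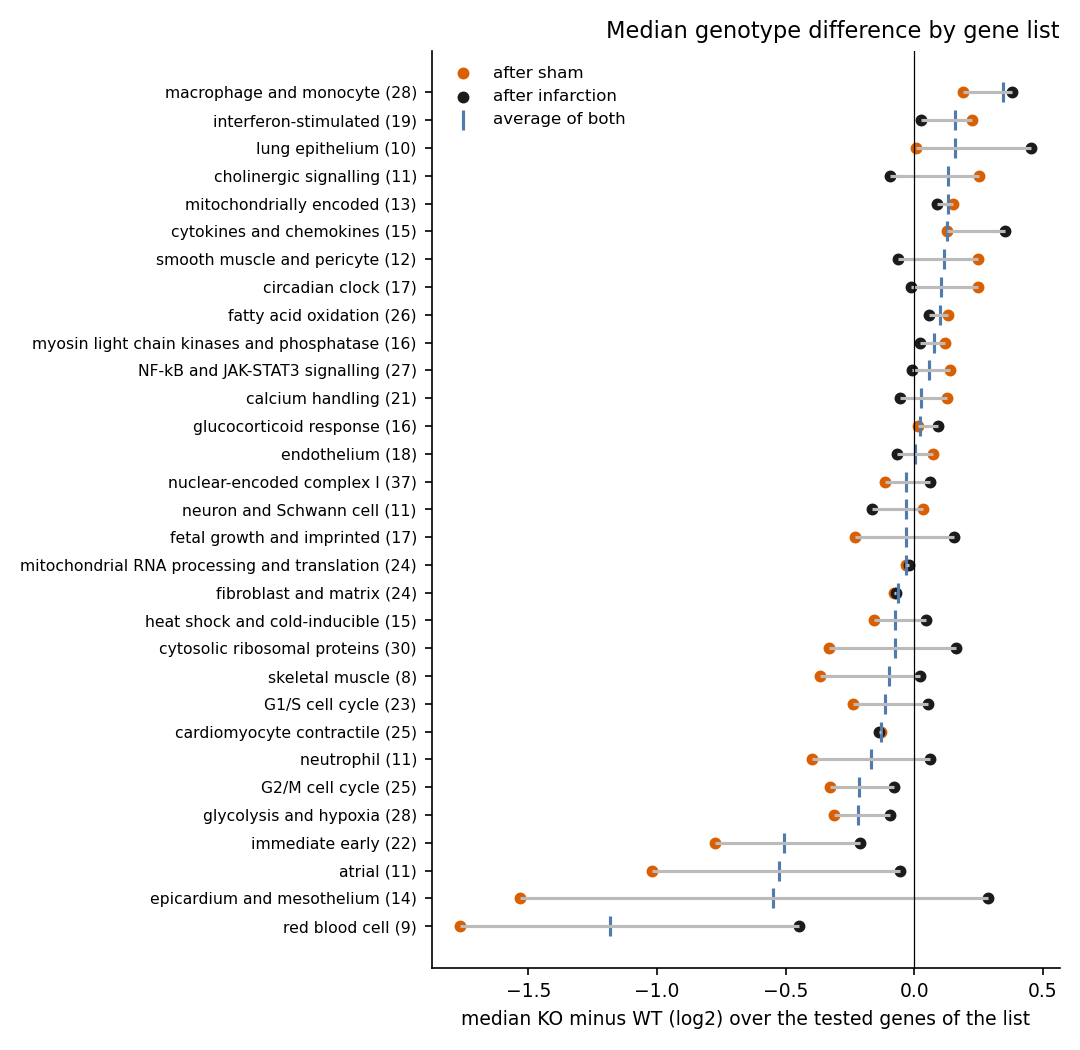
Median log2 difference KO minus WT over the tested genes of each list (x axis; number tested in brackets), after sham (orange), after infarction (black) and on average (blue bar). Red blood cell genes have the lowest average median (-1.18) and macrophage genes the highest (0.34), with sham medians of -1.77 and 0.19.

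The size of the call list depended on the fit. With 1 additive genotype term, which leaves the interaction in the residual spread, 183 genes were called, 23 of the 26 alike ones among them. DESeq2 called 1168 and limma voom 1274, each with all 26, and leaving out 1 library at a time gave 396 (without KO sham replicate 1) to 829 (without WT MI replicate 4).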

How the data were processed

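Counts of reads per gene came from the HTSeq table that the authors deposited, unnormalised, for all 16 samples. Per the submitters' processing notes, reads were handled with HISAT2 2.2.1 (build GRCm39) and HTSeq 0.13.5, beside cutadapt 3.4, bcl2fastq 2.17, DESeq2 and FastQC; strand setting and annotation release are not given in the sources used here, so overlapping genes of opposite strand may share reads. Symbols (22362 of 22468 genes), distances, transcript length and GC content came from a GRCm38 annotation. Reads in no feature were 23.7 to 28.2% of a library's reads and 5 lines that name no gene were left out.

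Groups came from the labels. The counts were fitted in R 4.3.3 with edgeR 4.0.16 (TMM, filterByExpr, robust quasi-likelihood fit, 1 mean per group, 12 residual degrees of freedom), two-sided, with Benjamini-Hochberg adjustment over 13412 genes at 0.05. CPM uses TMM-scaled totals; overlap of samples was read from log2 CPM (prior count 2). Single values were tested by exchanging genotype labels within each surgery (4900 arrangements). Counts were simulated for 13412 genes without a surgery effect, and genes with a mean of at least 50 counts were changed alike after both surgeries. The average contrast recovered 93% of 100 genes changed 1.5-fold and 99% of 100 changed 2-fold, with 7 false calls. The test requiring both surgeries recovered 55% and 87%. These rates do not cover smaller differences, lower counts or differences that change with surgery.

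Genes and lists were chosen with earlier results of these data known. Named were up to 12 higher and 12 lower alike genes of largest difference averaging 2 CPM or more in 1 genotype, all genes passing the test for both surgeries, the 5 higher and 5 lower other called genes of smallest p, the 3 members of smallest p in 11 described lists, and preset genes (Y-linked ones given only as a sum); others are marked as chosen after their values were seen, or are called members of a described list, alike genes outside the rule (Adcy5, Aldh4a1, Ipo13, Gabrg3 and Tmem150a) or neighbours; 1 gene the rule names is not reported here. Alternatives were DESeq2 1.42.0, limma 3.58.1 voom, other scalings, filters, models and subsets of libraries. Preset Fgfbp3 differed by -0.17 ± 0.19 (edgeR adjusted p = 0.63).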

Additional observations from a re-analysis of the deposited data

Results flagged for a closer look

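In 23 of the 304 sample groups of 4 examined, 1 sample lay far from the other 3 of its group by Dixon's criterion, which by chance picks about 1 group in 20. Of these, 6 were in KO MI replicate 4: lung epithelial markers at 289 CPM, mitochondrially encoded counts at 17.3%, mt-Nd4l at 19 CPM, Ipo13 at 40.03 CPM, Tmem150a at 13.99 CPM and Ide at 117 CPM. In WT sham replicate 1, Tnni1 stood at 858 CPM, Atf3 at 23.8 CPM and mesothelial markers at 91.5 CPM. In WT sham replicate 2, Pgam1 stood at 70.3 CPM and mitochondrially encoded counts at 13.4%. In KO sham replicate 4, Pdk4 stood at 351 CPM, Cpt1a at 143 CPM and Aldh4a1 at 25.9 CPM. In WT MI replicate 1, Morn4 stood at 7.73 CPM and Il1b at 10.5 CPM, and in WT MI replicate 2, mt-Nd6 at 3910.2 CPM. Single values were Acta1 at 131 CPM in KO MI replicate 1, Mki67 at 276 CPM in KO MI replicate 2, Hba-a1 at 678 CPM in KO MI replicate 3, Nppb at 229 CPM in WT sham replicate 3, Nppa at 1796 CPM in WT MI replicate 4 and Y-linked reads at 2.13 CPM in KO sham replicate 2.

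For 16 of the 69 named genes the genotype difference itself changed with surgery (interaction in edgeR, adjusted p under 0.05). Over all 13412 tested genes the interaction was called for 368 (2.74%). The named genes were chosen in part by small p in these data, so the 2 shares cannot be compared. The log2 difference after infarction minus that after sham was -0.62 for Gpam, -1.06 for Sema7a, -1.97 for Tnfsf10 and -1.87 for Cnr2, which were higher in KO on average. It was 1.57 for Hbb-bt, 1.11 for Alas2, 1.48 for Hba-a1 and 1.16 for Hbb-bs among red cell genes. It was 1.23 for Slc3a2, 1.57 for Tnni1, 1.67 for Atf3, 3.41 for Nr4a1, 0.78 for Tagln, 1.15 for Slc16a3, 0.85 for Bhlhe40 and 1.85 for Per1, all lower in KO on average. None of the 16 is an alike gene, which the definition of those genes largely fixes.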

How the results depend on the processing

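Against 735 genes called on average, 183 were called with an additive genotype term, 3211 from the sham samples alone, 1 from the infarcted samples alone, 1168 by DESeq2, 1274 by limma voom and 214 without the 3 libraries low in Y-linked reads (37.9% of them higher, against 46.9%). Without 1 library the count ran from 396 (without KO sham replicate 1) to 829 (without WT MI replicate 4). The test requiring both surgeries passed 1 gene in the reported fit, 4 by DESeq2, 2 by voom, 0 without haemoglobin and mitochondrial genes, which removes mt-Nd3 by construction, and 1 to 2 without 1 library. The count of alike genes, 26, became 43 with the length and GC correction and 44 with that and the replicate block (19 of the 26 among them each time), and 24 to 69 without 1 library (69 without KO MI replicate 2). The 368 interactions became 628 by DESeq2, 1524 by voom, 217 without the libraries low in Y-linked reads and 178 to 817 without 1 library (178 without KO sham replicate 1, 817 without WT MI replicate 2). The causes of these shifts were not tested. Signs turned in the infarcted samples alone for Sema7a (-0.0495), Tnfsf10 (-0.0694), Slc3a2 (0.089), Nppa (0.0143), Ide (-0.37) and Tnni1 (0.17). Fgfbp3 turned to 0.12 in the sham samples alone and ran from -0.289 to 0.0214 without 1 library, positive without WT MI replicate 3. After removal of the group means, same-numbered samples of different groups correlated at -0.0968 to 0.475 (median 0.011, 24 pairs, 4 over 0.1). Other-numbered ones correlated at -0.326 to 0.21 (median -0.0063, 72 pairs, 8 over 0.1). Of 16 samples, 5 correlated best with their own number. Whether same-numbered samples shared any handling is not in the labels and was not tested. With the replicate block 919 genes were called, the alike genes stayed at 26 and the test of both surgeries at 1. Under the block Myl4 (adjusted p = 0.0605), Myl7 (0.093) and Ccsap (0.0585) were not called, and 3 G2/M genes were called lower (7 with the length and GC correction too). Genes with 3 reads or fewer in a library, 0.179 to 0.29 CPM, are at the limit of detection there.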
